A study of Homo sapiens with 12 samples.

Results

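The transcripts described here came from 9 genes for secreted proteins: the serine protease inhibitor SERPINE2, the plasminogen activators PLAT and PLAU, the tissue inhibitors of metalloproteinases TIMP1, TIMP2 and TIMP3, the growth factors PGF and VEGFA, and the hormone LEP. They were taken by gene symbol from a given list, and each matched 1 of the 35337 rows of the expression table. Of these, 6 (SERPINE2, PLAT, PLAU, LEP, PGF and VEGFA) also stood in the list of genes of the senescence-associated secretory phenotype (SASP) that the study had assembled from earlier work (with its entry VEFGA read as VEGFA), whereas the 3 TIMP genes did not. The cells were of EndoC-βH3, a beta-like human line derived from fetal pancreas, which grows because it carries the genes of hTERT and of the SV40 large T antigen. Cells of both groups also carry a tamoxifen-dependent Cre recombinase that can remove these genes. The 6 senescent samples came from cells treated for 3 weeks with 4-hydroxytamoxifen (4-OHT), and the 6 non-senescent samples from untreated control cells. Of each group, 2 samples belonged to batch A and 4 to batch B. The paper describes that the activated recombinase cuts out the genes of hTERT and of the large T antigen, whereupon the cells become senescent. Without tamoxifen, according to the paper, these genes are expressed. Their removal was not examined here. Exposure to 4-OHT, the intended removal of these genes and senescence coincided in every senescent sample and cannot be told apart.

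Senescent cells stop dividing for good and often change what they secrete, and the proteases, protease inhibitors, growth factors and cytokines that they release act on neighboring cells and on the matrix around them. Plasminogen activators cut plasminogen into the protease plasmin, and serpins such as SERPINE2 trap these activators and other serine proteases in inactive complexes. Matrix metalloproteinases and related ADAM and ADAMTS enzymes cut matrix and cell-surface proteins, and TIMP proteins block their catalytic site. VEGFA and PGF belong to the same growth factor family and bind the receptor FLT1. Beta cells are known to secrete VEGFA, which maintains the dense capillary network of the islet, while leptin, the product of LEP, is best known as a hormone of fat cells that lowers insulin secretion.

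Of the 9 genes, 7 passed the filter on low values (5 or more normalised read counts on average over the 12 samples), and each of these also had a mean of at least 5 in either group alone. In the comparison of senescent with non-senescent cells (limma with batch in the model, Benjamini-Hochberg adjusted p under 0.1 over 13847 tested genes and fold change over 1.5), PGF, SERPINE2, LEP and TIMP3 rose. LEP had few reads, with a log2 fold change of 0.08 in batch A and 1.53 in batch B, and was not called in batch A alone. None of the 7 fell with limma, also at an unadjusted p under 0.05, and edgeR and DESeq2 on whole reads likewise called 4 higher and 0 lower. Of all tested genes 11.6% were called higher, 11.8% lower and 23.4% either way. When every library was scaled to the same total, the split over all genes moved from 1605 higher and 1632 lower to 1226 and 2090, and of the 9 genes 4 were then called higher and 1, TIMP2, lower. The median log2 fold change of the 7 genes was 0.99, against 0.01 over all tested genes. As the 9 genes were chosen with earlier results of these data known, this contrast and their share of calls are a description only. VEGFA was higher in senescent cells with a fold change of 1.43, under the limit of 1.5, and PLAT and TIMP2 did not pass the adjusted p. PLAU and TIMP1 had too few reads to be tested with the other genes. As whole cultures were measured, a change in the fraction of cells that express a gene cannot be told apart from a change in the RNA of each cell.

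The sequences upstream of TIMP3, LEP and PGF are shown because these genes rose and because their 250 bases before the start of transcription held no annotated exon (RefSeq sequences, GRCh38.p14). The corresponding window of SERPINE2, the remaining gene that rose, overlapped an exon of its own and is not printed. For PGF, which has 2 starts in the table, the start furthest upstream was used. That start lies outside the position of PGF given below, which ends at 74955626, so the window does not adjoin that position. The windows lie at chr22:32801455-32801704 on the plus strand for TIMP3, at chr7:128241028-128241277 on the plus strand for LEP and at chr14:74955765-74956014 on the minus strand for PGF. Capitals mark matches on either strand to the motifs GCGTG and ACGTG (the core of the hypoxia response element), TGACG (a core of the cAMP response element), GGGCGG (the SP1 box) and CCAAT (the CCAAT box).
TIMP3: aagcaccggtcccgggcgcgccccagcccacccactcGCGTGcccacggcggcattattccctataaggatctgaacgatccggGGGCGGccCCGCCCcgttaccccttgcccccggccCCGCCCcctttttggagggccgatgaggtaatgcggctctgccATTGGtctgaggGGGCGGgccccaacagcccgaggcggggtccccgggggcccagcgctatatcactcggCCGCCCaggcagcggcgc
LEP: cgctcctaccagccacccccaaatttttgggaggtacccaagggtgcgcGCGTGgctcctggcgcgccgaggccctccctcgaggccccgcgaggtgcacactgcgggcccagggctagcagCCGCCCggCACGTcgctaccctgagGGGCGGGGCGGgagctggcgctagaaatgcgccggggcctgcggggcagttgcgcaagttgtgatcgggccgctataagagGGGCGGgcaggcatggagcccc
PGF: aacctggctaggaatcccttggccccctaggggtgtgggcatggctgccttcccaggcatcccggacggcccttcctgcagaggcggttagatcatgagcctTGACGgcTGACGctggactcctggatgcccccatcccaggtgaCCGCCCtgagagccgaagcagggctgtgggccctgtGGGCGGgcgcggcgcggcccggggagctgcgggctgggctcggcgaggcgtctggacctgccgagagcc

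The 3 windows were rich in G and C, with 72.4% for TIMP3, 72% for LEP and 70.8% for PGF, against a median of 58.0% over 35116 windows of the same length. All 3 held the SP1 box, which occurred in 42.6% of all windows, with 5 matches in TIMP3, 4 in LEP and 2 in PGF. In LEP a pair of these matches overlapped by 1 base. TIMP3 and LEP held 1 GCGTG each (32.2% of all windows), LEP also held 1 ACGTG (18.5%), PGF held 2 TGACG (21.2%), and TIMP3 held 1 CCAAT (32%). The letters of the AP-1 site TGANTCA (6.57% of all windows) and of the TATA box TATAAA (10.7%) were not found in the 3 windows. A match describes the sequence only, since binding of factors was not measured in these samples.

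The 12 libraries were made by CEL-seq2, which reads the 3′ end of each polyadenylated transcript, so that counts do not scale with transcript length. Libraries held 8873569 to 17106776 reads in batch A and 4672924 to 7063264 reads in batch B. In normalised read counts (reads divided by a scaling factor for each library), 1 read was worth 0.449 to 0.795 in batch A and 1.05 to 1.51 in batch B. The leading principal component held 57.6% of the variance, and its relation to batch or group was not examined. Several of the genes described here differed in level between the batches, and values are therefore given for each batch. All 12 beta-cell markers examined passed the filter, with CHGA, which encodes the secretory granule protein chromogranin A, as the highest. Of markers of other cell types, 2 of 9 fibroblast genes, 2 of 7 endothelial, 0 of 6 adipocyte, 2 of 8 acinar, 1 of 7 ductal, 2 of 7 leukocyte and 1 of 7 trophoblast genes passed it. No source used here says whether the samples of a batch came from separate cultures, so p-values measure the spread between these samples, which may be technical.

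**Figure D1:**
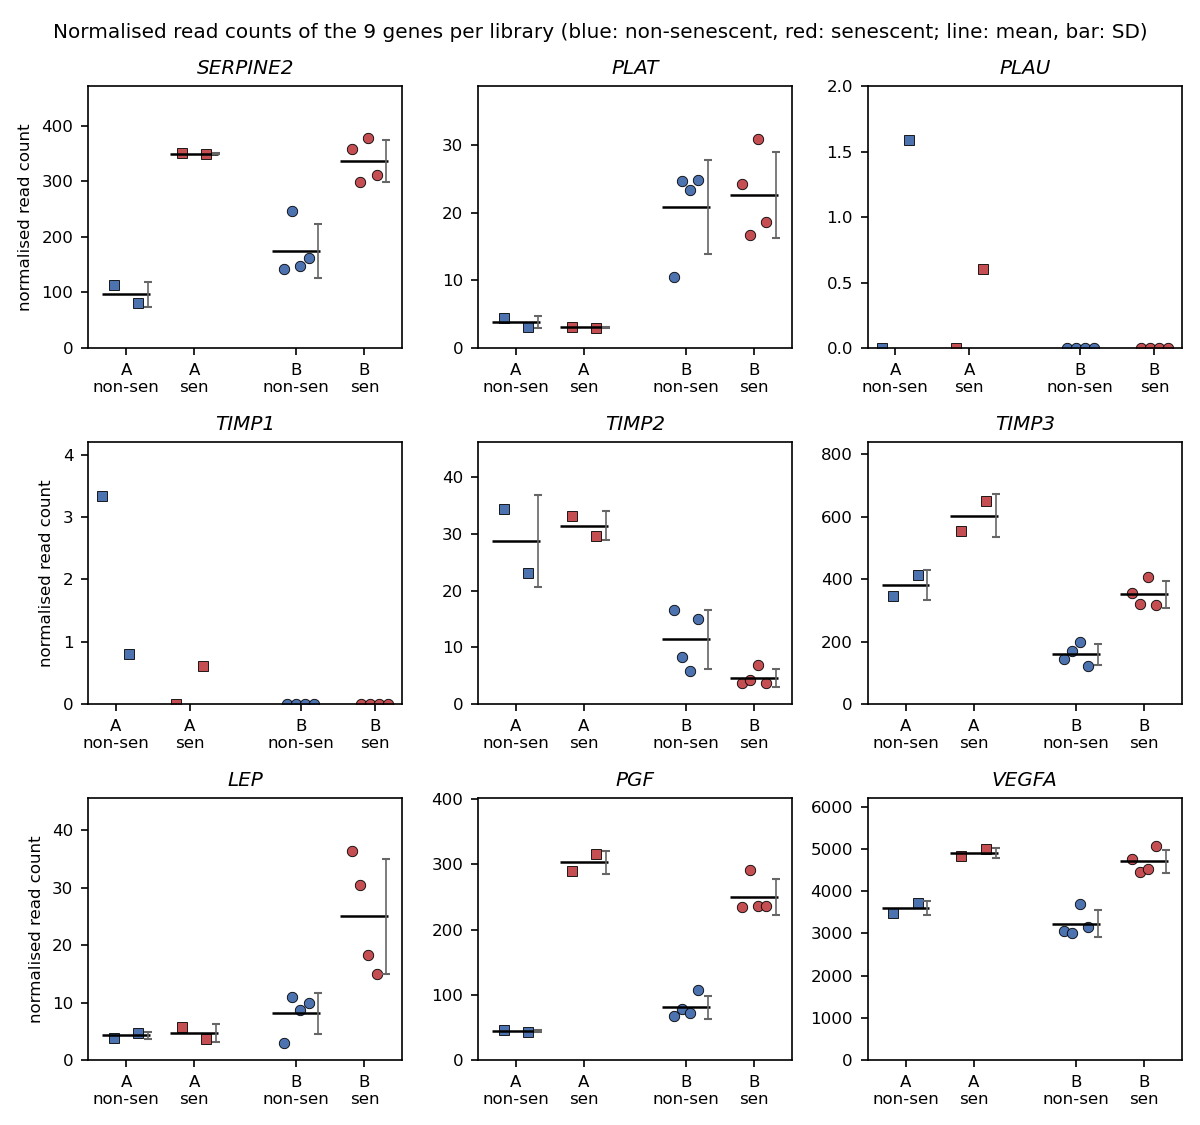
Normalised read counts (vertical axis, from 0, with its own scale for each gene) of the 9 genes in every library of batch A (squares) and batch B (circles). Horizontal lines and bars give mean and SD (2 libraries a group in A, 4 in B) and are left out for PLAU and TIMP1; senescent libraries lie above all non-senescent libraries of their batch for SERPINE2, TIMP3, PGF and VEGFA, and in batch B for LEP.

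Among the genes of the plasminogen system, the inhibitor SERPINE2 rose, while its target PLAT did not pass the test and PLAU was close to undetected. SERPINE2, also called protease nexin 1, inhibits thrombin, plasmin and both plasminogen activators, and lies on chromosome 2 at 223975045 to 224039318 (GRCh38, as are the positions that follow, all of protein-coding genes). In batch A the non-senescent libraries had 113 and 80.3 normalised read counts and the senescent libraries 351 and 349. In batch B the non-senescent values were 142, 246, 148 and 163, and the senescent values 359, 299, 378 and 311. Every senescent library thus stood above every non-senescent library. Such separation of the groups, within A and within B and in 1 direction, held for 23.8% of all tested genes, and for SERPINE2, TIMP3, PGF and VEGFA among them. The mean was 149 ± 56.2 in non-senescent and 341 ± 29.8 in senescent cells (SD, n = 6). This rise of 2.41-fold corresponded to a log2 fold change of 1.27 ± 0.17 (SE, limma adjusted p 1.26e-05). On the log2 scale, batch A gave 1.87 and batch B 0.97, and in batch B the non-senescent cells already had 1.81 times the level of batch A, while senescent cells differed by a ratio of 0.963 between the batches. The difference between the batches did not pass the interaction test over all genes (-0.89 ± 0.29, adjusted p 0.128), although edgeR on whole reads called it (adjusted p 0.0612, with a range of 0.0612 to 0.527 over the alternatives).

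PLAT encodes tissue plasminogen activator (chromosome 8, 42174718 to 42207709), which starts the dissolution of clots and is also stored in granules of neuroendocrine cells. It was measured at 4.45 and 3.18 normalised read counts in non-senescent and 3.14 and 3.02 in senescent cells of batch A. In batch B it stood at 10.5, 24.8, 23.4 and 24.8 in non-senescent and at 24.2, 16.8, 30.9 and 18.7 in senescent cells. The groups overlapped in batch B and were apart by less than the worth of 1 read in batch A, whereas the batches were far apart, with means in B 5.48 times those in A for non-senescent and 7.35 times for senescent cells. The log2 fold change upon senescence was 0.02 (95% confidence interval -0.59 to 0.64, limma adjusted p 0.960), an interval that holds changes of up to about the fold limit in either direction. With 4 to 27 reads per library, smaller changes of PLAT were not detectable at this depth.

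PLAU encodes urokinase (chromosome 10, 73909177 to 73917496), the plasminogen activator that acts at the cell surface through the receptor PLAUR. It had 2 reads in 1 non-senescent library and 1 read in 1 senescent library, both of batch A, and 0 reads in the other 10 libraries. A count of 0 allows up to 3 reads in a library, so that no difference could be detected (exact two-sided permutation test within batches over 420 arrangements, p = 1.0). As every library of batch B had 0 reads, rearranging batch B changed nothing, and the test could not reach a small p. Its exons share 915 bases with C10orf55 on the opposite strand, and the strand of these reads was not examined. Exons of TIMP2 and VEGFA likewise share 367 and 188 bases with other genes on the opposite strand.

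Within each library, SERPINE2 outnumbered PLAT throughout. The ratio was 25.4 and 25.3 SERPINE2 reads per PLAT read in non-senescent and 112 and 116 in senescent cells of batch A. In batch B it ranged from 6.31 to 13.4 in non-senescent and from 12.2 to 17.8 in senescent cells, and the ranges overlapped. As PLAT had few reads, these ratios carry its counting error.

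**Figure D2:**
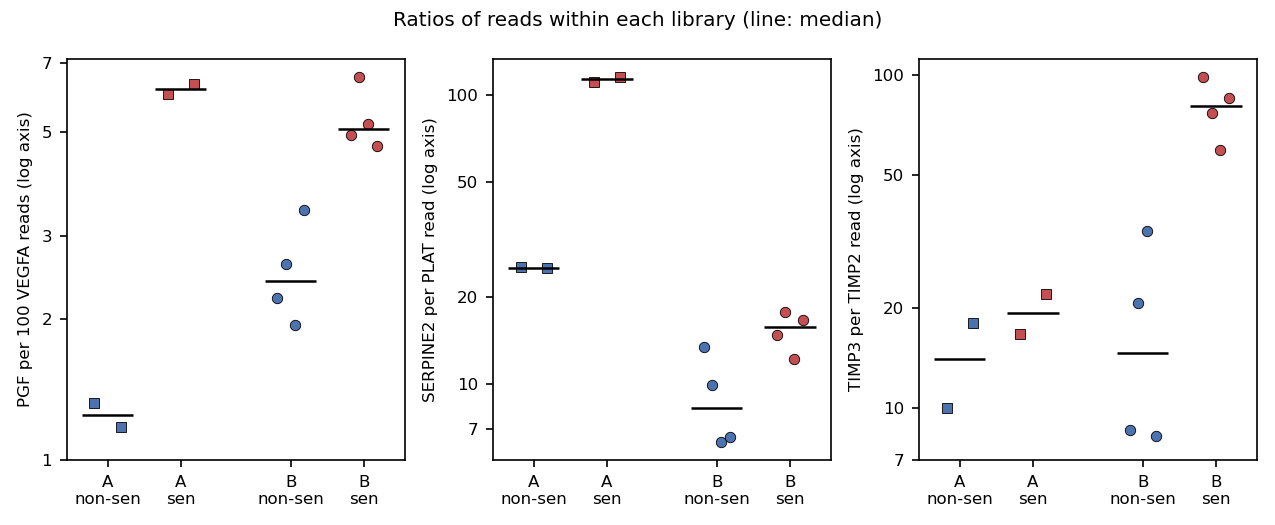
Ratios of reads of paired genes within each library on log axes: PGF per 100 VEGFA reads, SERPINE2 per PLAT read and TIMP3 per TIMP2 read, with the median of each group as a line (blue non-senescent, red senescent). The ratio of PGF to VEGFA separates the groups in both batches, from 1.18 to 3.40 in non-senescent and from 4.67 to 6.55 in senescent libraries.

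The 3 TIMP genes gave 3 different pictures. TIMP3 (chromosome 22, 32801705 to 32863041), which binds to the matrix and inhibits both metalloproteinases and ADAM proteases, was the most abundant and rose. It had 346 and 415 normalised read counts in non-senescent and 554 and 652 in senescent cells of batch A, and 143, 171, 199 and 123 against 357, 321, 409 and 318 in batch B. Senescent libraries were higher within each batch, but the values of senescent cells of batch B reached those of non-senescent cells of batch A, as levels in A were 2.40 times those in B in non-senescent and 1.72 times in senescent cells. The log2 fold change was 0.99 ± 0.13 (SE) or 1.99-fold (limma adjusted p 9.94e-06). Batch A gave 0.66 and batch B 1.16, a difference that did not pass the interaction test (adjusted p 0.367).

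TIMP2 (chromosome 17, 78852977 to 78925387), which inhibits MMP2 and also takes part in its activation, had 34.5 and 23.0 normalised read counts in non-senescent and 33.2 and 29.6 in senescent cells of batch A. In batch B it had 16.6, 8.26, 5.84 and 14.9 in non-senescent and 3.64, 4.20, 6.87 and 3.74 in senescent cells. The groups overlapped in both batches, and levels in A were 2.52 times those in B in non-senescent and 6.81 times in senescent cells. The log2 fold change was -0.67 ± 0.33 (SE, limma adjusted p 0.125). Batch A gave 0.15 and batch B -1.08, and the difference between batches did not pass the interaction test (adjusted p 0.395). The call of TIMP2 depended on the processing: it was called lower in batch B alone (adjusted p 0.0509), with every library scaled to the same total (0.0743), without the intensity trend (0.0992), and when the non-senescent library A2 (0.0703) or B3 (0.0841) was left out, and its adjusted p ranged from 0.0509 to 0.696 over the alternatives. In batch B the senescent libraries held 3 to 6 TIMP2 reads each. Exons of TIMP2 share 224 bases on the same strand with CEP295NL, which had a mean of at most 0.208 normalised read counts in either group.

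TIMP1 (X chromosome, 47582408 to 47586789), an inhibitor widely secreted by stromal cells, had 6 and 1 reads in the non-senescent libraries of batch A, 1 read in 1 senescent library of batch A, and 0 reads in the other 9 libraries. The exact two-sided permutation test within batches gave p = 0.333. In batch A both non-senescent values already lay above both senescent ones, and batch B held no reads. No arrangement could thus give a lower p, and the test could not detect a difference. TIMP4, the remaining member of the family, was named after its values were seen and had 0 reads in all 12 libraries. TIMP3 reads per TIMP2 read were 10.0 and 18 in non-senescent and 16.7 and 22.0 in senescent cells of batch A, which overlapped, and 8.25 to 34.0 against 59.5 to 98.3 in batch B, which did not.

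PGF showed the largest fold change of the 7 tested genes. It encodes placental growth factor (chromosome 14, 74941834 to 74955626), which stimulates blood vessel growth through FLT1. Non-senescent libraries had 46.1 and 43.7 normalised read counts in batch A and 67.8, 78.5, 71.6 and 107 in batch B, while senescent libraries had 290.4 and 316 in batch A and 235, 292, 236 and 237 in batch B. The lowest senescent value was above the highest non-senescent value. The mean rose from 69.1 ± 23.2 to 268 ± 35.9 (SD, n = 6), which was 3.98-fold or a log2 fold change of 1.99 ± 0.18 (SE, limma adjusted p 1.04e-07). PGF was the 1 gene of the 7 whose response differed between the batches, with a log2 fold change of 2.73 in A and 1.63 in B (interaction -1.10 ± 0.26, limma adjusted p 0.0385), a difference called for 4.21% of all tested genes. Its direction was the same in both batches. The interaction no longer passed when either non-senescent library of batch A (adjusted p 0.113 without A1 and 0.180 without A2) or either senescent library of batch A (0.152 and 0.207) was left out, and its adjusted p ranged from 0.0139 to 0.207 over all alternatives.

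VEGFA (chromosome 6, 43770184 to 43786487) was by far the most abundant of the 9 genes and ranked 135 of 13847 tested genes by mean level. Non-senescent libraries had 3492 and 3716 normalised read counts in batch A and 3069, 3008, 3699.9 and 3145 in batch B. Senescent libraries had 4831 and 4999 in batch A and 4775, 4455, 4537 and 5068 in batch B. All 6 senescent libraries were above all 6 non-senescent libraries. The means were 3355 ± 321 and 4777 ± 244 (SD, n = 6), and the log2 fold change was 0.51 ± 0.06 (SE, limma adjusted p 6.44e-06). Batch A gave 0.45 and batch B 0.55. The upper bound of the 95% confidence interval was 0.65, so that the interval includes fold changes slightly over 1.5. PGF thus gained relative to VEGFA within each library, from 1.18 to 3.40 PGF reads per 100 VEGFA reads in non-senescent to 4.67 to 6.55 in senescent cells.

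LEP (chromosome 7, 128241278 to 128257629) had few reads, from 2 to 30 per library. In batch A it had 3.89 and 4.77 normalised read counts in non-senescent and 5.84 and 3.62 in senescent cells, which overlapped. In batch B it had 3.01, 11, 8.77 and 9.94 in non-senescent and 36.4, 30.4, 18.3 and 14.9 in senescent cells, which did not. The mean was 6.90 ± 3.42 in non-senescent and 18.3 ± 13.1 in senescent cells (SD, n = 6), and the log2 fold change was 1.05 ± 0.38 (SE, 2.07-fold, limma adjusted p 0.0383). Over the alternatives the adjusted p ranged from 0.0200 to 0.886. Batch B gave a log2 fold change of 1.53 (95% confidence interval 0.62 to 2.44) and batch A one of 0.08 (-1.20 to 1.37), and the difference between the batches did not pass the test (interaction adjusted p 0.376). LEP was not called in batch A alone (adjusted p 0.886) nor without a batch term (0.243). None of the 6 adipocyte markers passed the filter, CIDEA was at 0 reads, and their summed level was 1.51 to 30.7 in non-senescent and 1.21 to 11.4 in senescent libraries.

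**Figure D3:**
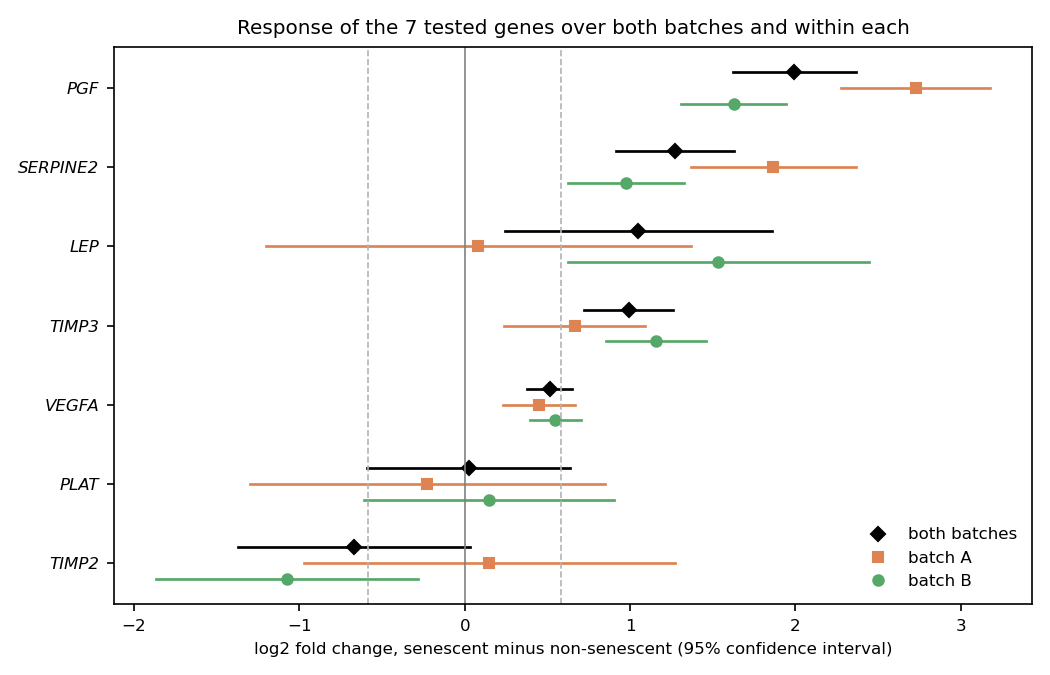
Log2 fold change of senescent against non-senescent cells (horizontal axis) of the 7 tested genes, with 95% confidence intervals, over both batches (black), in batch A (orange) and in batch B (green). The dashed lines mark a fold change of 1.5 in either direction. The intervals of the batches lie apart for PGF and SERPINE2. Those of PLAT include 0, as do those of TIMP2 over both batches and in batch A, and that of LEP in batch A.

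As each transcript gives reads from its 3′ end, the levels of the genes could be set in order by mean normalised read count, which was done within each batch and group because several genes shifted between the batches. VEGFA came first throughout, above the next gene without overlap. In batch A the order below it was TIMP3, SERPINE2, PGF, TIMP2, LEP and PLAT in both groups. Down to TIMP2 neighbors did not overlap there, whereas LEP and PLAT overlapped in non-senescent cells. In batch B the order in non-senescent cells was SERPINE2, TIMP3, PGF, PLAT, TIMP2 and LEP. SERPINE2 exceeded TIMP3 in 2 of 4 libraries, PLAT exceeded TIMP2 in 3 of 4 and TIMP2 exceeded LEP in 2 of 4, so these neighbors overlapped. In senescent cells of batch B the order was TIMP3, SERPINE2, PGF, LEP, PLAT and TIMP2. TIMP3 exceeded SERPINE2 in 3 of 4 and LEP exceeded PLAT in 2 of 4, again with overlap, while PLAT was above TIMP2 in 4 of 4 without overlap, the reverse of batch A. PLAU and TIMP1 came last in each case. Efficiency of priming can differ between transcripts, and its part in this order was not tested.

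The genes with the profile closest to each called gene were sought among 11681 genes with a mean of at least 20, by the root mean square distance of the centered log2 values over the 12 libraries. SERPINE2 was most like FAM19A5, which encodes a secreted chemokine-like protein (distance 0.28), TMCC3 (0.30) and CFC1, a coreceptor of the ligand Nodal (0.30). TIMP3 was most like the somatostatin receptor SSTR3 (0.18), the semaphorin receptor PLXNA3 (0.19) and APLP1, a relative of the amyloid precursor protein (0.20). PGF was most like FXYD3, a regulator of the sodium pump (0.27), RASSF10 (0.30) and ADA2, a secreted adenosine deaminase (0.30). These genes were found by their values in these libraries, and their distances are a description.

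The wider families of the 9 genes held called genes in both directions. Their counts are to be read against the 11.6% of all tested genes called higher and 11.8% called lower. Genes outside the 9 could pass the filter through the values of 1 group alone. The genes named below are those with the largest changes among called genes with a mean of at least 20, and others are marked. In the plasminogen system, 13 of 22 genes were tested, of which 3 rose and 1 fell, with a median log2 fold change of 0.15. Next to SERPINE2, SERPINI1 rose (log2 fold change 2.48 ± 0.11, limma adjusted p 2.46e-11). It encodes neuroserpin, a further inhibitor of tissue plasminogen activator that is made by neurons and endocrine cells. It was followed by LRP1, the endocytic receptor that clears complexes of activators and serpins (1.16 ± 0.28, 0.00329). SERPINF2, the main inhibitor of plasmin in blood, fell by 0.62 (adjusted p 0.0207). The urokinase receptor PLAUR had a log2 fold change of -0.42 (limma adjusted p 0.398). PLG itself had 2 reads in all non-senescent and 4 in all senescent libraries. PLAUR and PLG were named after their values were seen.

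Among metalloproteinases and their inhibitors, 25 of 59 genes were tested, of which 7 rose and 2 fell (median 0.23). The other 34 genes were under the filter, and 6 of them had 0 reads in all libraries. Among those with a mean of at least 20, MMP23B rose by 3.29 ± 0.54 (adjusted p 1.15e-04), MMP15, a metalloproteinase anchored in the cell membrane, by 1.80 ± 0.21 (3.54e-06), and ADAMTS6 by 1.21 ± 0.24 (6.59e-04), all with limma. MMP23B had 16 reads in all non-senescent and 250 in all senescent libraries. Its means were 2.65 and 45.5 normalised read counts, so it passed the filter through the senescent group alone. The response of MMP23B differed between the batches, with 1.15 in A and 4.36 in B (interaction adjusted p 0.0652). ADAMTS5, an enzyme that cuts the matrix proteoglycan aggrecan, fell by 1.82 (adjusted p 6.48e-09), from 321 ± 63.7 to 95 ± 33.9 normalised read counts (SD, n = 6). Of the metalloproteinases in the SASP list, MMP1, MMP3, MMP9, MMP10 and MMP14 were under the filter, with at most 7 reads in a group, and MMP2 had a log2 fold change of -0.74 (adjusted p 0.252). These 6 genes were named after their values were seen.

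In the VEGF family and linked angiogenic factors, 13 of 24 genes were tested, of which 4 rose and 1 fell (median 0.18). Of the 4, PDGFA, named after its values were seen, passed the filter through the senescent group alone. Its mean was 3.44 in non-senescent and 20.7 in senescent cells. PDGFD, a growth factor for mesenchymal cells, rose by 2.91 ± 0.27 (limma adjusted p 2.03e-07), and ADM, which encodes the vasodilator adrenomedullin, by 1.32 ± 0.34 (0.00543). VEGFB, another ligand of FLT1, fell by 0.66 (adjusted p 8.07e-04), with -0.15 in A and -0.91 in B, a difference that was called (interaction adjusted p 0.0729). Of the receptors, named after their values were seen, FLT1 had a log2 fold change of 0.09 (adjusted p 0.794) and KDR had 12 reads in all non-senescent and 4 in all senescent libraries.

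In leptin signaling, 13 of 15 genes were tested, of which LEP and IRS1 rose and LEPR fell (median 0.36). IRS1, an adaptor of the insulin receptor, rose by 0.97 ± 0.14 (limma adjusted p 4.57e-05). LEPR, the leptin receptor, fell by 0.90 (adjusted p 0.0365), by 1.99 within A and by 0.36 within B, a difference that was not called (interaction adjusted p 0.175). SOCS3, the feedback inhibitor of the receptor, was named after its values were seen and had 0 reads in all libraries.

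Of the targets of hypoxia-inducible factors, of which VEGFA is one, 24 of 29 were tested, 8 rose and 4 fell (median 0.21). NDRG1, a stress-induced gene, rose by 2.83 ± 0.13 (limma adjusted p 2.49e-11), ANKRD37 by 1.10 ± 0.48 (0.0841), and PFKFB4, a regulator of glycolysis, by 0.98 ± 0.13 (1.65e-05). LDHA, which encodes lactate dehydrogenase and is known as a gene that mature beta cells keep low, fell by 2.37 (9.42e-09), the transcription factor gene BHLHE40 by 1.05 (0.00672), and ALDOC, an aldolase of glycolysis, by 0.87 (5.16e-04).

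Of the 79 genes listed by the study as SASP genes, 75 were in the table by symbol and 29 were tested, with 5 higher, 5 lower and a median log2 fold change of 0.02, beside 11.6% and 11.8% of all tested genes. PGF, SERPINE2 and LEP were 3 of the 5 higher genes, beside BMP2, a ligand of the TGF-β superfamily (2.31 ± 0.28, limma adjusted p 3.74e-06), and IGF2R (0.59 ± 0.18, 0.0148). The chemokine genes CXCL1 and CXCL3 fell by 2.40 and 1.33, the lamin gene LMNB1, whose loss is itself a mark of senescence, by 1.80, and the growth factor binding protein gene IGFBP2 by 1.77, with adjusted p from 2.20e-07 to 0.0764. CXCL3 was at 0.23 in A and -2.11 in B (interaction adjusted p 0.337). Without the 9 genes, 2 of 24 tested SASP genes were higher and 5 were lower.

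**Figure D4:**
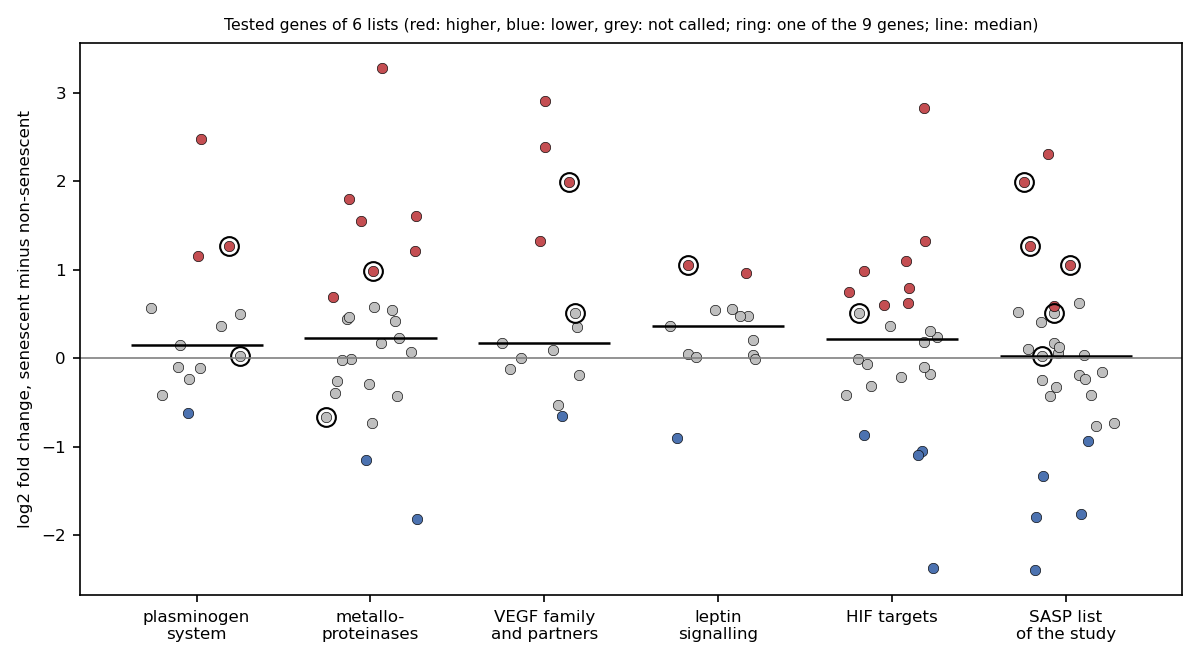
Log2 fold changes (vertical axis) of the tested genes of 6 gene lists, with genes called higher in red, called lower in blue and not called in grey; rings mark the 9 genes and lines the median of each list. The lists hold genes in both directions, and their medians lie between 0.02 and 0.36.

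Markers of other cell types were examined beside these results. The summed level of the 8 acinar markers was 45.6 to 74.5 normalised read counts in non-senescent and 145 to 262 in senescent libraries. All 8 had reads, 2 were tested, and CPA1, which encodes a digestive carboxypeptidase, rose by 2.25 while CPB1, named after its values were seen, fell by 2.05. The summed level of the 7 ductal markers was 244 to 383 in non-senescent and 79.0 to 164 in senescent libraries, and KRT19, the 1 tested marker, fell by 1.35 (limma adjusted p 5.80e-08). Both sums moved with the group, but each was mostly 1 gene. CPA1 had a mean of 43.6 in non-senescent and 211 in senescent cells, and KRT19 one of 311 and 125. The sums thus do not describe the other markers of their lists. Their part in the changes of PGF, SERPINE2, TIMP3 and LEP was not tested. The other lists overlapped between the groups: the fibroblast sum was 18.9 to 126 in non-senescent and 15.7 to 57.2 in senescent libraries (PDGFRB at 0 reads, highest gene COL3A1), the endothelial sum 10.3 to 38.5 and 7.25 to 44.6 (VWF, TEK and CLDN5 at 0, highest EMCN), the leukocyte sum 23.8 to 51.1 and 18 to 42.0 (CD3E and TYROBP at 0, highest CD68), and the trophoblast sum 4.45 to 49.7 and 5.44 to 29.8 (CGB3 and CSH1 at 0, highest ERVW-1). In these 4 lists 7 genes were tested, of which 1, the leukocyte gene PTPRC, named after its values were seen, fell by 1.58 (limma adjusted p 0.00720). The highest adipocyte marker was PLIN1, with a mean of 3.54.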

How the data were processed

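RNA of EndoC-βH3 cells was profiled by CEL-seq2 in 12 samples, grouped by their labels (6 non-senescent, 6 senescent; the letter in the titles was taken as the batch). According to the methods, Cutadapt served the authors for trimming, Salmon 0.13.1 with GRCh38 for quantification, and DESeq2 for normalisation and for a comparison corrected for batch. The annotation and the use of molecular identifiers are not given in the sources used here, so reads are not known to be independent molecules, and floors reflect counting error alone. Each deposited value is a signal: the reads of a gene over the size factor of its library. The table also holds the authors' own comparison (log2 fold change with its error, a test score, p-values), which was not used.

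Dividing each column by its smallest non-zero value gave whole reads for 100.0% of 196021 non-zero values (tolerance 0.001 reads). limma 3.58.1 (R 4.3.3) was run with the intensity trend on log2(value + 1) for 13847 genes with a mean of at least 5. The model held batch and group, and a second model held their interaction (called at adjusted p under 0.1). Fold changes on this scale understate the change of low genes. edgeR 4.0.16 on the recovered reads called 1561 higher and 1677 lower genes, and DESeq2 1.42.0 called 1576 and 1647. As alternatives, other pseudocounts, filters, scalings, batch terms, a replicate block, tools, fold limits and subsets of libraries were tried. The procedure was tested on simulated data. No libraries of one group and batch held the same read numbers (chi-square per degree of freedom 4.28 to 8.05), and each was counted as 1 sample. As reads may not be independent molecules, this does not show that the libraries came from separate cultures.

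The 9 genes and the gene lists were chosen with earlier results of these data known. From each pathway list, up to 4 largest rises and up to 4 largest falls among called genes with a mean of at least 20 were named, from each marker list the gene with the highest mean, and for each called gene with a mean of at least 20 the 3 closest profiles. Other genes are marked as named after their values were seen. Positions came from GENCODE v44 on GRCh38 and upstream sequences from RefSeq (GRCh38.p14), which held entries for 6 of the 9 genes. Of the SASP list, 4 entries did not match a symbol in the table and were not used.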

Additional observations from a re-analysis of the deposited data

Results flagged for a closer look

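Of 32 groups of libraries of the 9 genes checked for a single value far from the others, 5 had one. Groups over both batches mixed the levels of the batches and held the libraries of batch B again. The number flagged can therefore not be set against a chance rate. PLAT had 10.5 normalised read counts in the non-senescent library B1, the lowest of the 4 in batch B, which otherwise lay between 23.4 and 24.8. PGF had 292 in the senescent library B2, the highest of the 4 in batch B, with the others between 235 and 237. The other 3 rested on single reads or pairs of reads: PLAU with 1.59 in the non-senescent library A2 and 0.604 in the senescent library A2, and TIMP1 with 0.604 in the senescent library A2, the only libraries of their group with reads. A group with reads in 1 library only is always flagged by this check.

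The response of PGF was smaller in batch B than in batch A, by -1.1 on the log2 scale (limma interaction, adjusted p 0.0385), although all 6 senescent libraries were above all 6 non-senescent ones. The non-senescent cells of batch B had 1.81 times the PGF level of batch A.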

How the results depend on the processing

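PGF, SERPINE2 and TIMP3 kept their direction and their calls under all alternatives run, with log2 fold changes of 1.63 to 2.73, 0.97 to 1.87 and 0.66 to 1.16. The number of the 9 genes called ranged from 3 to 5, and from 4 to 5 with a library left out. LEP kept its call with each library left out (adjusted p 0.0204 to 0.0992). VEGFA was called without the fold limit. At a mean of at least 20, LEP, PLAT and TIMP2 were not tested. The sign of PLAT was negative in batch A alone (-0.23), with every library at the same total (-0.070) and in edgeR (-0.0066), and ranged from -0.17 to 0.10 with a library left out. TIMP2 was at 0.15 in batch A alone. The count over all genes was 2143 without the batch term and 6301 without the fold limit, and 3142 to 3277 with a library left out. At the same total, 1226 genes were higher and 2090 lower, and the median of all genes moved to -0.09. The number of the 9 genes with a batch difference was 2 in edgeR and 0 to 2 with a library left out, where SERPINE2 joined PGF without the non-senescent library B3 (adjusted p 0.0996). The causes of these shifts were not tested. Correlations of the deviations of same-numbered libraries ran from -0.0508 to 0.0164, which does not settle whether replicate numbers pair the samples. With the replicate block 1591 genes were higher and 1620 lower, 4 of the 9 genes among them, with LEP at an adjusted p of 0.0734 (limma). Depth limited PLAT, TIMP2 and LEP in particular, with 2 to 30 reads per library in batch B, and batch A had 2 libraries a group.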
